A study of Homo sapiens with 64 samples.

Results

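The salt-inducible kinases SIK1, SIK2 and SIK3 were followed through a time course of cAMP-raising drugs in BEAS-2B cells, a human airway epithelial cell line. Their members were all probe sets whose platform annotation names 1 of the 3 symbols: 12 of 54675 probe sets, and 3 of the 19775 genes tested. By their labels all samples were of this line, kept in serum-free keratinocyte medium and then treated with a drug or with vehicle. The 16 groups were 10 nM indacaterol with 10 nM GSK 256066, 10 nM indacaterol alone, 10 nM GSK 256066 alone and vehicle, each at 1, 2, 6 and 18 h, with 4 replicates a group and 64 arrays in all. Indacaterol is a long-acting agonist of the beta2-adrenoceptor, which raises cAMP, and GSK 256066 inhibits PDE4, a family of enzymes that degrade it. The labels do not say that the replicates were separate cultures, so p-values measure only the spread between these samples, which may be technical.

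Salt-inducible kinases are serine/threonine kinases of the AMPK-related family. The kinase LKB1 switches them on, and protein kinase A, the kinase that cAMP activates, phosphorylates them so that 14-3-3 proteins bind and hold them inactive. Active salt-inducible kinases keep CRTC coactivators and class IIa histone deacetylases in the cytoplasm, away from CREB and MEF2 target genes, and SIK1 is itself known as a CREB target. The arrays measured RNA, not protein or kinase activity, and in a whole culture fewer expressing cells and less RNA per cell cannot be told apart.

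The promoters of the 3 genes are shown because the cAMP response element, TGACGTCA, is the site that CREB is known to bind, and these genes were measured under cAMP-raising drugs. Each line gives the 250 bases before the gene's start from RefSeq (GRCh38.p14), 5′ to 3′ on the gene's strand, with every match to the half-site TGACG or its reverse complement in capitals.
SIK1, chr21:43427132-43427381, minus strand: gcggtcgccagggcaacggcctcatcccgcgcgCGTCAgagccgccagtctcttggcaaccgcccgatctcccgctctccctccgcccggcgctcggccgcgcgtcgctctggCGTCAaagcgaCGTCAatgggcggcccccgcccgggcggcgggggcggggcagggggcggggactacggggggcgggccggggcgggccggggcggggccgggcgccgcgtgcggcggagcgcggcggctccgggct
SIK2, chr11:111602199-111602448, plus strand: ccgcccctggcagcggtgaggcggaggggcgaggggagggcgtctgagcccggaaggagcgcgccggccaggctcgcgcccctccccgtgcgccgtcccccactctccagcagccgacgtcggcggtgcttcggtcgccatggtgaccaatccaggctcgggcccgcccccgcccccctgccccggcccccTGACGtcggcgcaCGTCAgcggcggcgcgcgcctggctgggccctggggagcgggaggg
SIK3, chr11:117098429-117098678, minus strand: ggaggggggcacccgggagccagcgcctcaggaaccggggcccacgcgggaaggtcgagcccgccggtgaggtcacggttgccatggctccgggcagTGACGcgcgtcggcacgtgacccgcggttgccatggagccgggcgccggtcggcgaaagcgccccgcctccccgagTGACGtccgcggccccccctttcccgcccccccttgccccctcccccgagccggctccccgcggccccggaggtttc
Both strands were searched from 250 bases before to 50 bases after each start. None of the 3 windows held the full element, which 1.85% of 35116 RefSeq promoters of that length held. Half-sites numbered 3 in SIK1, 2 in SIK2 and 2 in SIK3, and 24.6% of all promoters held at least 1 and 6.02% at least 2. Each of the 3 windows held 1 copy of TGACGTC, the element without its last base, or of its reverse complement: from -128 to -122 in SIK1, from -59 to -53 in SIK2 and from -77 to -71 in SIK3, counted from the gene's start. This 7-base form, chosen after the sequences were seen, includes 1 of the half-sites of each gene and occurred in 3.45% of all promoters. SIK3 holds these letters like SIK1 and SIK2, and a match describes the sequence only. RefSeq lists a near-copy of SIK1 on chromosome 21 (LOC102724428, 6111131 to 6123778) whose promoter window was identical at 300 of 300 bases, and whether the SIK1 probe sets also read its transcript was not tested.

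Array medians ran from 101 to 127 signal units, on the linear scale of the PLIER summary. Of the epithelial markers, the keratins KRT8 and KRT18 were bright on every array, at 3048 to 6726 and 5118 to 9853. EPCAM was dim, at 109 to 248.8 on the arrays of replicate 3 and 28.7 to 141.3 on the others. KRT19 and CDH1 differed by replicate number and are given below. Of the 4 mesenchymal markers, VIM and COL1A1 were bright on every array, at 9574 to 12240 and 5431 to 10840, PDGFRB read 797.5 to 2539 and COL1A2 84.6 to 182. Of the 4 leukocyte markers, PTPRC read 14.8 to 42.4, CD3E 59.2 to 111, ITGAM 50.8 to 119 and CD14 24.9 to 289.5. The 16 arrays of replicate 3 stood apart. The summed signal of the 3 measured basal and squamous markers, KRT5, KRT14 and S100A9, was 403100 to 1522000 on the replicate 3 arrays and 216 to 485 on the other 48. KRT19 and CDH1 were likewise higher on all replicate 3 arrays, at 2287 to 4407 and 699 to 1487, against 0.00396 to 116 and 64.6 to 487 on the others. PDGFRB was lower on all replicate 3 arrays, at 797.5 to 1092, against 1371 to 2539 on the others. The leukocyte markers summed to 341 to 497 on replicate 3 and 196 to 396 on the others, and CD14 alone read 140.6 to 289.5 on replicate 3 and 24.9 to 170.7 on the others. Since replicate 3 lies in every group, results are given with and without it where it decides them, and its part in them beyond that was not tested.

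SIK1 was called from 1 h. By then its transcript was about 5 times the vehicle level after indacaterol, alone or with GSK 256066. Relative to vehicle it stood slightly higher at 2 h, a difference between times that was not called. Mean signals at 1 and 2 h were 4875 and 4544 with indacaterol, 4656 and 4727 with both drugs, and 948 and 734 with vehicle. By 18 h no drug group was separated from vehicle. SIK1 is known as an immediate-early gene. Its brighter probe set, 208078_s_at, gives the SIK1 values that follow. At 1 h the signal was 4651, 3509, 6777 and 3687 with both drugs (replicates 1 to 4), and 5956, 4030, 6467 and 3046 with indacaterol. It was 1866, 782, 2320 and 710 with GSK 256066, and 1019, 767, 1319 and 687 with vehicle. All both-drug and indacaterol arrays lay above all vehicle arrays, while the GSK 256066 arrays of replicates 1 and 3 lay high and those of replicates 2 and 4 lay among the vehicle arrays. With limma over all genes, where a call means a Benjamini-Hochberg adjusted p under 0.05, SIK1 rose by 2.27 ± 0.38 with both drugs (log2 of signal + 16, SE, adjusted p = 0.000363) and by 2.33 ± 0.38 with indacaterol (adjusted p = 0.000233). The ratios of mean signals were 4.91 and 5.14. SIK1 was 1 of 3 members called in each of these contrasts, beside 0.283% of 19775 genes called with both drugs and 0.212% with indacaterol. By size of rise it ranked 5 among all genes in both. Without replicate 3 the changes were 2.25 and 2.34, and both stayed past the threshold. Without replicate 1 in every group the indacaterol change had adjusted p = 0.0511.

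At 2 h SIK1 read 5848, 3455, 6143 and 3461 with both drugs and 5619, 3888, 5787 and 2884 with indacaterol. It read 1514, 775, 1338 and 641 with GSK 256066 and 796, 735, 839 and 567 with vehicle. The both-drug and indacaterol arrays again lay above every vehicle array, by a wide gap. The increases were 2.62 ± 0.38 with both drugs (limma adjusted p = 7.94e-06) and 2.56 ± 0.38 with indacaterol (adjusted p = 1.29e-05), and the ratios of mean signals were 6.44 and 6.19. At that hour 1.06% and 1.22% of all genes were called, and 2 of the 3 kinases, SIK1 and SIK2, were among them in each contrast.

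**Figure D1:**
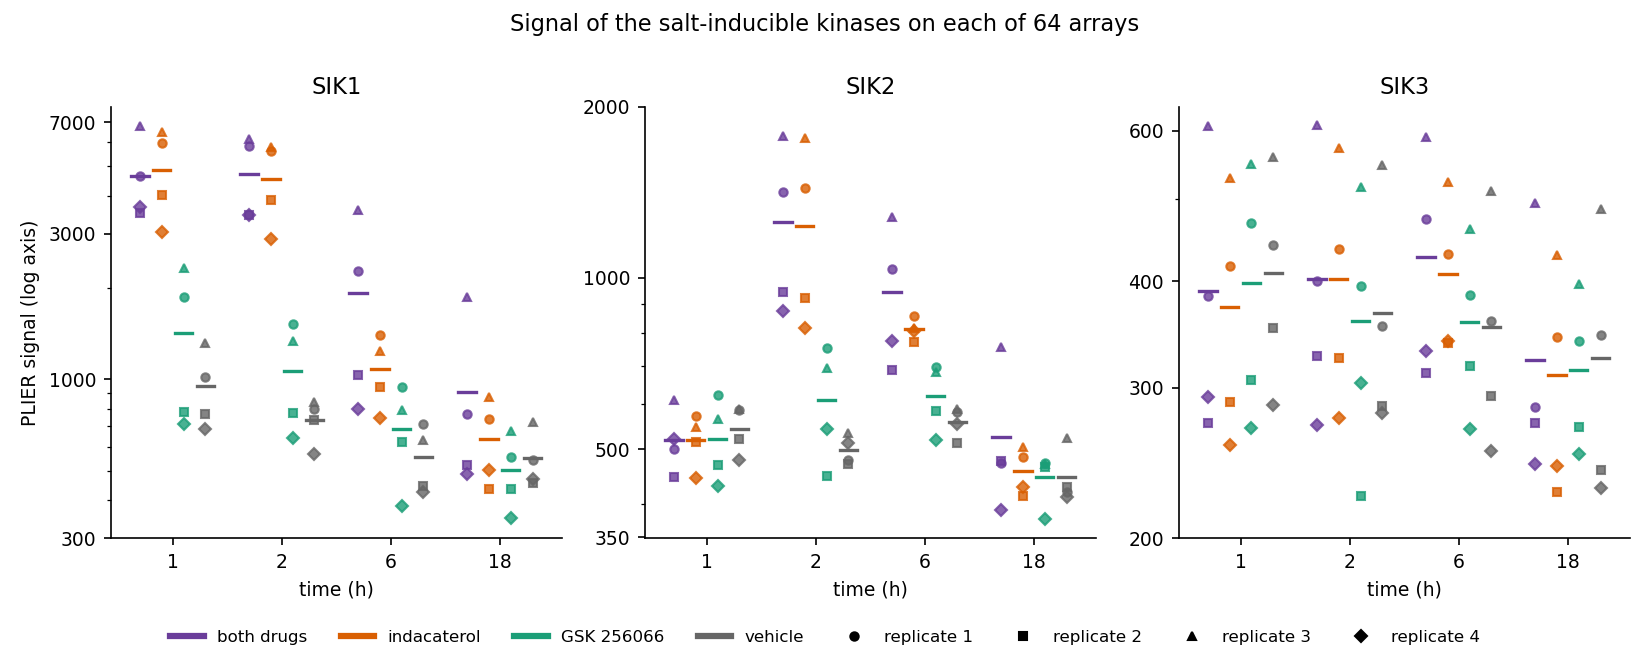
PLIER signal (log axis) of SIK1, SIK2 and SIK3 on each of the 64 arrays, by time in hours and treatment, with the replicate number as the symbol and the group mean as a bar. SIK1 is high at 1 and 2 h with indacaterol, alone or with GSK 256066, SIK2 is high at 2 h and less so at 6 h, and the SIK3 groups overlap throughout with replicate 3 on top.

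At 6 h SIK1 was still above vehicle in both indacaterol-containing groups, by a smaller margin. The signal was 2274, 1030, 3604 and 795 with both drugs and 1402, 942, 1237 and 743 with indacaterol, against 940, 619, 792 and 383 with GSK 256066 and 713, 445, 630 and 425 with vehicle. Neither group overlapped with vehicle. In the both-drug group, replicate 4 (795) lay just above the highest vehicle array (713), and replicate 3 lay far above. SIK1 rose by 1.55 ± 0.38 with both drugs (limma adjusted p = 0.0296; 0.759% of genes called). Without replicate 3 in any group the change was 1.24 (adjusted p = 0.144), and without the both-drug replicate 3 array alone it was 1.17 (adjusted p = 0.32). The call was also lost without replicate number 1 or 2, without the both-drug array of replicate 1, or without the vehicle array of replicate 2, 3 or 4, with changes of 1.39 to 1.67. The indacaterol change was 0.94 ± 0.38 (adjusted p = 0.81), past no threshold, where 0.268% of genes were called. With the replicate number as a block, limma gave adjusted p = 9.86e-04 for indacaterol and 3.22e-08 for both drugs, the same changes measured within replicate numbers. The block called 458 and 1046 of 19775 genes there. At 18 h the signal was 770, 521, 1859 and 488 with both drugs, 740, 436, 871 and 501 with indacaterol, 554, 434, 676 and 349 with GSK 256066 and 544, 457, 724 and 471 with vehicle. These groups overlapped, with 1 high both-drug array from replicate 3. The changes were 0.52 with both drugs, 0.18 with indacaterol and -0.14 with GSK 256066, each ± 0.38, and none was called by limma, beside 0.0354%, 0.00506% and 0% of genes.

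The second SIK1 probe set, 232470_at, was dimmer, with a mean of 94.0 over the 64 arrays, and followed the same course. At 2 h it read 240, 161, 261 and 155 with both drugs, 256, 186, 273 and 160 with indacaterol and 27.7, 48.8, 39.8 and 25.6 with vehicle. The drug arrays did not overlap with the vehicle arrays. In the fit over all 54613 non-control probe sets it rose by 2.09 ± 0.27 with both drugs (limma adjusted p = 6.07e-07; 0.751% of probe sets called) and by 2.19 ± 0.27 with indacaterol (adjusted p = 2.4e-07; 0.938% called). At 1 h the changes were 1.78 (adjusted p = 6.39e-05; 0.198% called) and 1.94 (adjusted p = 1.08e-05; 0.174% called). At 6 h with both drugs it changed by 1.02 (adjusted p = 0.0679; 0.485% called), short of the threshold. Over the 16 group means the 2 probe sets correlated at r = 0.99, on the same arrays.

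SIK2, the isoform best known from fat and liver metabolism, was not called at 1 h and rose at 2 h. By 2 h its transcript stood near 2.5 times vehicle in both indacaterol-containing groups. Its brightest probe set, 213221_s_at, read 501, 447, 609 and 521 at 1 h with both drugs, 572, 515, 546 and 444 with indacaterol, 624, 469, 565 and 431 with GSK 256066 and 587, 520, 589 and 478 with vehicle. The 4 groups overlapped, and the changes were -0.07 in all 3 drug groups, each ± 0.19. Their 95% confidence intervals ran from -0.44 to 0.31. At 2 h the signal was 1418, 945, 1779 and 874 with both drugs and 1441, 923, 1764 and 817 with indacaterol, against 754, 448, 695 and 542 with GSK 256066 and 479, 472, 535 and 512 with vehicle. Every both-drug and indacaterol array lay above every vehicle array, with replicates 1 and 3 the high pair in both groups. SIK2 rose by 1.24 ± 0.19 with both drugs (limma adjusted p = 1.42e-05) and by 1.21 ± 0.19 with indacaterol (adjusted p = 2.57e-05). The ratios of mean signals were 2.51 and 2.48. Without replicate 3 the changes were 1.09 (adjusted p = 0.00018) and 1.05 (adjusted p = 0.000253). With the log2 values of all 4 SIK2 probe sets averaged they were 0.70 and 0.67, still called.

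At 6 h SIK2 read 1038, 689, 1281 and 774 with both drugs, 858, 773, 816 and 807 with indacaterol, 698, 583, 685 and 519 with GSK 256066 and 582, 512, 588 and 554 with vehicle. The indacaterol values lay close together and, like the both-drug values, above every vehicle value. The changes of 0.70 ± 0.19 with both drugs (limma adjusted p = 0.0575) and 0.53 ± 0.19 with indacaterol (adjusted p = 0.55) were not called. With the replicate block they were called, at adjusted p = 1.67e-04 and 0.0116, beside 1046 and 458 of 19775 genes. At 18 h the changes were 0.19, 0.04 and 0.00 for both drugs, indacaterol and GSK 256066, each ± 0.19. The groups overlapped there, and the both-drug array of replicate 3, at 756, lay apart from the other 3 at 392 to 478.

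**Figure D2:**
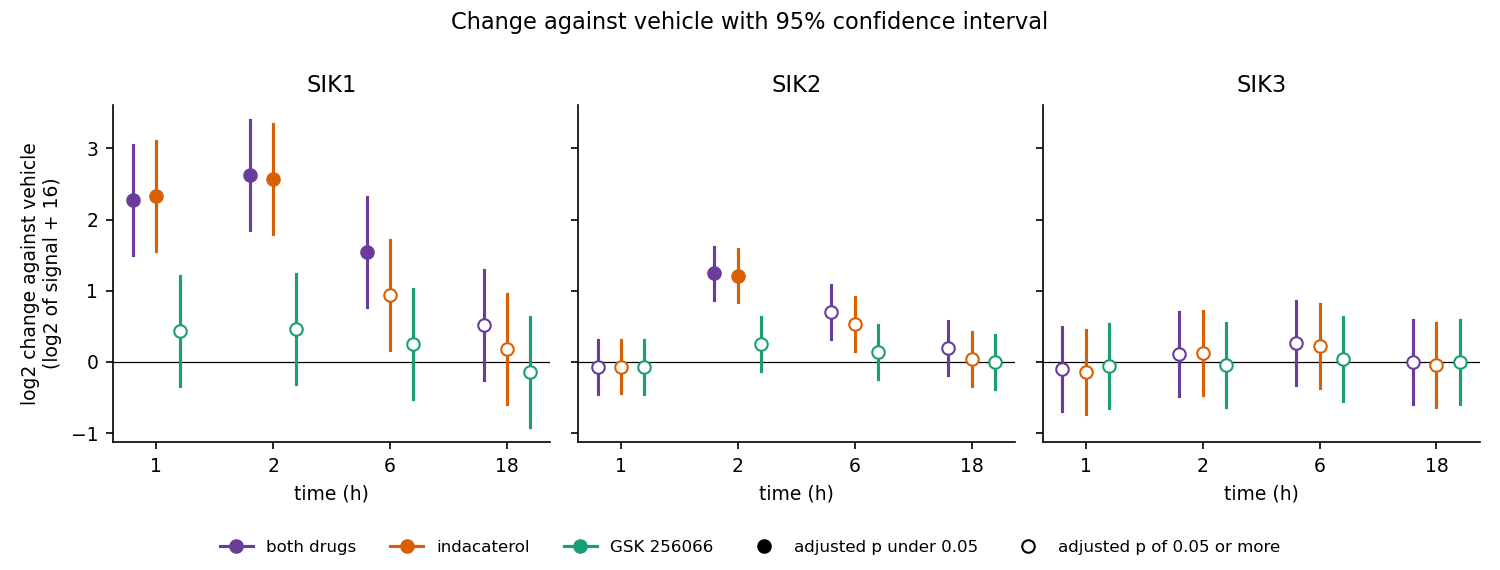
Change against vehicle (log2 of signal + 16) with its 95% confidence interval for SIK1, SIK2 and SIK3 after both drugs, indacaterol and GSK 256066 at 1, 2, 6 and 18 h, where filled points have a limma adjusted p under 0.05. Filled points are found for SIK1 at the 2 earliest times and for both drugs at 6 h, for SIK2 at 2 h, and nowhere for SIK3.

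The 4 probe sets of SIK2 did not agree in size. The second brightest, 223430_at, read 802, 636, 1129 and 497 at 2 h with both drugs, 906, 600, 1108 and 578 with indacaterol and 339, 371, 335 and 355 with vehicle. The drug arrays lay above all vehicle arrays, and limma gave 1.03 ± 0.16 (adjusted p = 3.35e-05) and 1.10 ± 0.16 (adjusted p = 1.03e-05). The vehicle level of this probe set was itself lower at 2 h than at 1 h, where it read 469, 487, 450 and 497. That difference was -0.43 ± 0.16 (adjusted p = 0.232), with no overlap, and the brightest probe set showed -0.12 ± 0.19. The third, 1556056_at, with a mean of 303, changed by 0.38 with both drugs and 0.36 with indacaterol at 2 h, neither called (adjusted p = 0.554 and 0.508). The fourth, 215752_at, had a mean of 5.80, among the dimmest of all named probe sets, and changed by 0.16 and 0.02.

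**Figure D3:**
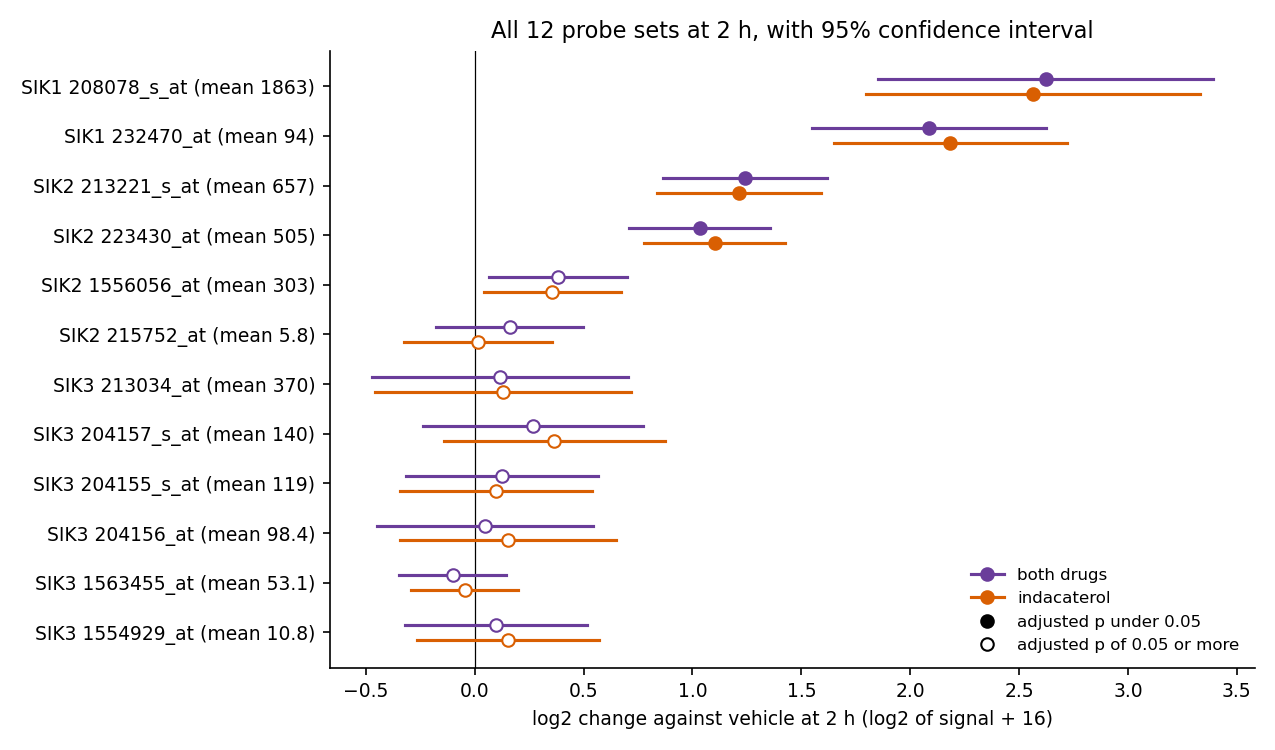
Change at 2 h against vehicle (log2 of signal + 16) with its 95% confidence interval for all 12 probe sets, with both drugs above indacaterol in each pair and the mean signal over 64 arrays beside each name; filled points have a limma adjusted p under 0.05. Both SIK1 probe sets and the 2 brightest SIK2 probe sets are called, and the other 8 are not.

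SIK3, the third isoform, which is known for its part in skeletal growth and sleep in mice, was not called in any drug contrast. Its brightest probe set, 213034_at, read 401, 327, 609 and 272 at 2 h with both drugs, 436, 325, 574 and 276 with indacaterol, 395, 224, 516 and 304 with GSK 256066 and 355, 285, 547 and 280 with vehicle. The 4 groups overlapped almost completely, and each held 1 high array, from replicate 3. The 2 h changes were 0.12, 0.13 and -0.04, each ± 0.29, and the 95% confidence interval for both drugs ran from -0.48 to 0.71. Over the 12 contrasts against vehicle its changes lay between -0.14 and 0.26. At 6 h SIK3 was higher than vehicle in 4 of 4 replicate numbers with both drugs (0.26) and with indacaterol (0.22). With the replicate block limma still called neither (adjusted p = 0.0585 and 0.215), beside 1046 and 458 of 19775 genes called. At 2 h the intervals ended at 0.71 with both drugs and 0.72 with indacaterol. Rises of the size read from the brightest SIK2 probe set lie outside them. The smaller rises of the averaged SIK2 probe sets lie inside. These intervals come from the fit without the replicate block, so their width includes the spread between replicate numbers. Within replicate numbers 1 to 4 the SIK3 change with both drugs at 2 h was 0.17, 0.19, 0.15 and -0.04. The other 5 SIK3 probe sets changed by -0.10 to 0.27 with both drugs at 2 h, and none was called. Of these, 1554929_at and 1563455_at were dim, with means of 10.8 and 53.1.

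SIK3 varied instead with the replicate number. Replicate 3 was the highest array in 16 of 16 groups, at 397 to 609, and replicate 1 was second in 16 of 16, at 285 to 473. Replicates 2 and 4 read 224 to 352 and 229 to 341. Of the spread in log2 signal of 213034_at, 81.8% lay between replicate numbers and 11.9% between the 16 groups. At least as large a share between replicate numbers was found in 4.33% of all genes, whose median was 13.3%. The 3 next brightest SIK3 probe sets had 71.1%, 75.9% and 71.8% between replicate numbers. For SIK1 the shares were 11.5% between replicate numbers and 85.2% between groups, and for SIK2 12.1% and 78.4%, where the median gene had 26.9% between groups. Replicates 1 and 3 were also the 2 highest SIK1 arrays in 16 of 16 groups. SIK3 was highest on the arrays that carried the basal and squamous markers, but it was not among the 335 genes (1.69%) for which every replicate 3 array lay above all other arrays. What sets the replicate numbers apart was not tested.

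**Figure D4:**
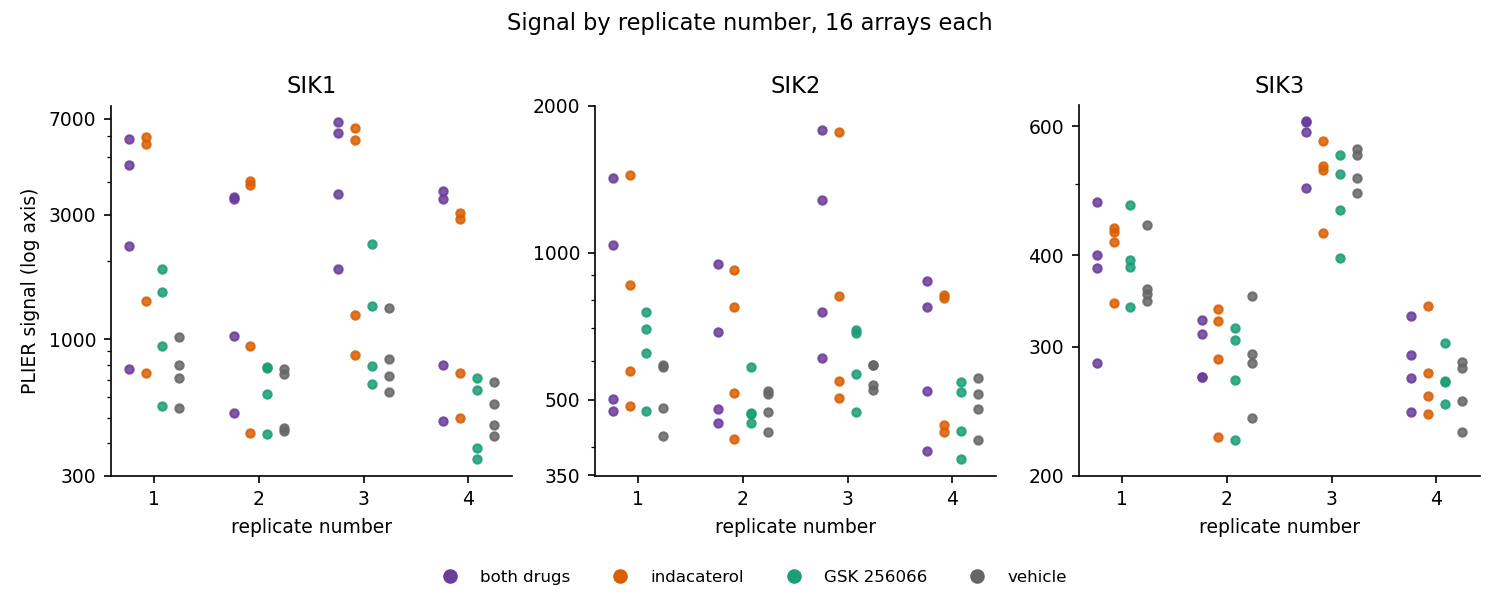
PLIER signal (log axis) of SIK1, SIK2 and SIK3 by replicate number, with 16 arrays in each and treatments in colour from both drugs on the left to vehicle on the right. SIK3 varies with the replicate number, with replicate 3 highest at 397 to 609, though its range overlaps with replicate 1 at 285 to 473. SIK1 and SIK2 spread by treatment within each number.

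GSK 256066 alone moved none of the 3 kinases past the threshold. Its SIK1 changes were 0.44, 0.46, 0.26 and -0.14 at 1, 2, 6 and 18 h, each ± 0.38, and its SIK2 changes -0.07, 0.25, 0.14 and 0.00. Limma called 1 of 19775 genes at 1 h (0.00506%) and 0% at the 3 later times. An unadjusted p under 0.05 was found there for 898, 345 and 700 genes, each fewer than the 5% expected if no gene changed. At 1 h it was found for 1401 genes, more than 5%. At 1 and 2 h SIK1 was higher than vehicle in the same replicate number in 4 of 4 pairs, by 0.86 and 0.91 in replicate 1 and 0.81 and 0.66 in replicate 3, but by 0.03 and 0.07 in replicate 2 and 0.05 and 0.17 in replicate 4. At 2 h the replicate numbers failed the pairing rule given with the processing (lowest r = -0.0484), so those pairs are a description only. The upper ends of the 95% intervals for SIK1 were 1.21 at 1 h and 1.23 at 2 h.

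Adding GSK 256066 to indacaterol made no called difference to any of the kinases. The SIK1 difference between both drugs and indacaterol was -0.05, 0.06, 0.61 and 0.34 at 1, 2, 6 and 18 h, each ± 0.38. At 2 h its 95% interval ran from -0.71 to 0.83, and at 6 h, where the both-drug array was higher in 4 of 4 replicate numbers, from -0.16 to 1.38. Without replicate 3 the 6 h difference was 0.30. The SIK2 differences were 0.00, 0.03, 0.17 and 0.15, and at 2 h the interval was -0.35 to 0.41. In these 4 contrasts limma called 0% of genes, with 249, 256, 345 and 304 at an unadjusted p under 0.05, each below 5%. The departure from additivity, both drugs minus GSK 256066 minus the indacaterol change, was -0.49, -0.40, 0.35 and 0.48 for SIK1 with SE 0.54, and between -0.22 and 0.15 for SIK2. Limma called 0% of genes in this test at 1, 2, 6 or 18 h. An unadjusted p under 0.05 was found for 546, 459, 259 and 477 genes, each below 5%.

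Adding indacaterol to GSK 256066 did raise SIK1 and SIK2. Both drugs against GSK 256066 gave SIK1 changes of 1.84 ± 0.38 at 1 h (limma adjusted p = 0.0223; 0.142% of genes called) and 2.17 ± 0.38 at 2 h (adjusted p = 0.000444; 0.925% called). The arrays did not overlap at either time. The 1 h call was lost without the GSK 256066 array of replicate 2 or 4, or the both-drug array of replicate 1 or 3, with changes of 1.57 to 1.82, and without replicate number 1, 2 or 4, with changes of 1.66 to 2.01. At 6 h the change was 1.29 (adjusted p = 0.181; 0.359% called), and with the replicate block 3.88e-06 was its adjusted p. The block called 608 of 19775 genes there. SIK2 rose by 0.99 ± 0.19 at 2 h (adjusted p = 0.00105), again without overlap, and without replicate number 2 it changed by 0.97 (adjusted p = 0.0565). At 6 h the SIK2 change of 0.56 had adjusted p = 0.323, or 5.03e-03 with the block, and with the block but without replicate 3 it was 0.45 (adjusted p = 0.074). At 18 h neither kinase was called, and 0% of genes were, with 402 at an unadjusted p under 0.05, below 5%. On the second probe sets, 232470_at of SIK1 rose by 1.43 at 1 h (adjusted p = 0.00581; 0.0732% of probe sets called) and 1.68 at 2 h (adjusted p = 8.32e-05; 0.729% called), and 223430_at of SIK2 rose by 0.81 at 2 h (adjusted p = 0.0025), where the groups overlapped.

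The indacaterol effect on SIK1 and SIK2 differed between times. In limma's F-test over the 4 times, the indacaterol effect varied for SIK1 (F = 8.71, adjusted p = 0.037) and for SIK2 (F = 9.60, adjusted p = 0.0208), beside 0.268% of genes called. The both-drug effect varied for SIK2 (F = 9.47, adjusted p = 0.0227) but missed the threshold for SIK1 (F = 5.84, adjusted p = 0.216), beside 0.344% of genes. Without replicate 3 the indacaterol effect on SIK2 had adjusted p = 0.0785, and F = 5.20 to 12.2 over the leave-outs, lost without any 1 of the 4 replicate numbers, vehicle replicate 1 or 2 at 2 h, or indacaterol replicate 1 or 3 at 2 h. The SIK2 both-drug call (F = 4.62 to 11.7) was lost without replicate number 1, 2 or 4 or the both-drug array of replicate 1 or 3 at 2 h. The SIK1 call (F = 5.38 to 9.35) was lost without replicate number 1, 2 or 4 and without single arrays of vehicle (replicates 2 and 4 at 1 h, 1, 2 and 4 at 2 h, 1 at 6 h and all 4 at 18 h) or indacaterol (1 and 3 at 1 h, 1 to 3 at 2 h, 2 and 4 at 18 h). Between 1 and 2 h the both-drug effect on SIK2 grew by 1.31 ± 0.27 (adjusted p = 0.0351; 0.0354% called) and the indacaterol effect by 1.28 ± 0.27 (adjusted p = 0.063; 0.0152% called). The both-drug call was lost without replicate number 1 or 2, without any 1 vehicle array at 1 or 2 h, without both-drug replicate 1, 2 or 4 at 1 h, or without both-drug replicate 1 or 3 at 2 h, with differences of 1.12 to 1.53 over all leave-outs. On 223430_at the same differences were 1.24 (adjusted p = 0.0249; 0.0238% of probe sets) and 1.22 (adjusted p = 0.0369; 0.00916%). For SIK1 they were 0.35 and 0.24, each ± 0.54, and not called. Between 2 and 6 h the SIK1 effect changed by -1.07 with both drugs (0.0354% of genes called) and by -1.62 with indacaterol (0.0556% called), each ± 0.54 and neither called, though the indacaterol difference on 232470_at was -1.84 ± 0.38 (adjusted p = 0.0318; 0.0403% of probe sets). The replicate block called 146 and 229 of 19775 genes for the both-drug differences from 2 to 6 h and 6 to 18 h. Those of SIK1, -1.07 and -1.04, had adjusted p = 0.031 and 0.0331 with the block. With the block but without replicate 3 they were -1.31 (adjusted p = 0.00336) and -0.998 (adjusted p = 0.0538). From 6 to 18 h the SIK2 effects changed by -0.51 and -0.49, neither called, beside 0.0455% and 0.0152% of genes. The GSK 256066 effect was not called as varying over time for any of the kinases. In that test 0% of genes were called, with 430 at an unadjusted p under 0.05, below 5%. Whether the time course of SIK1 differs from that of SIK2 was not tested.

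In vehicle, SIK1 was lower at 6 and 18 h than at 1 h, with mean signals of 553 ± 141 and 549 ± 123 against 948 ± 285 at 1 h (SD, n = 4 each). Against vehicle at 1 h, SIK1 changed by -0.33, -0.75 and -0.75 at 2, 6 and 18 h, each ± 0.38, SIK2 by -0.12, 0.04 and -0.28, each ± 0.19, and SIK3 by -0.16, -0.21 and -0.34, each ± 0.29. SIK1 was lower at both times in 4 of 4 replicate numbers, and SIK3 at 18 h likewise, while the groups overlapped. None was called by limma, beside 0.192%, 1.21% and 1.59% of genes. With the replicate block SIK1 was called at 6 h (adjusted p = 0.00782) and at 18 h (0.00631), and SIK3 at 18 h (0.00611). The block called 1397 of 19775 genes at 6 h and 1566 at 18 h, against 240 and 315 without it. The F-test of vehicle over time called none of the 3 and 6.63% of all genes.

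Ordered by mean log2 signal over the 16 groups, SIK1 was highest with indacaterol at 1 h (4875 ± 1609, SD, n = 4), both drugs at 2 h (4727 ± 1470), both drugs at 1 h (4656 ± 1500) and indacaterol at 2 h (4544 ± 1401), and lowest with GSK 256066 at 18 h (503 ± 143). Each of these groups overlapped with its neighbour in the order. SIK2 was highest with both drugs at 2 h (1254 ± 425), indacaterol at 2 h (1236 ± 445), both drugs at 6 h (945 ± 269) and indacaterol at 6 h (813 ± 35.0), and lowest with vehicle at 18 h (446 ± 51.7). The only neighbours that did not overlap were indacaterol at 6 h and GSK 256066 at 6 h (621 ± 85.3). SIK3 ran from 427 ± 130 with both drugs at 6 h to 311 ± 94.6 with indacaterol at 18 h, and all neighbours overlapped. Over the 16 group means the kinases correlated at r = 0.58 for SIK1 with SIK2, 0.57 for SIK1 with SIK3 and 0.67 for SIK2 with SIK3, on the same arrays.

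Among 13451 genes with a mean signal of at least 100, the 5 whose group means followed SIK1 most closely were FOXC2, a forkhead transcription factor (Pearson r = 0.99), the orphan nuclear receptor NR4A2 (0.98), the cytokine IL6 (0.98), TOB1, an antiproliferative protein (0.98), and the orphan nuclear receptor NR4A3 (0.97). For SIK2 they were the zinc finger gene ZNF462 (0.98), PRKCE, a protein kinase C (0.98), the forkhead factor FOXO1 (0.98), PLEKHA2 (0.97) and EVA1C (0.97). For SIK3 they were the histone gene H2BC5 (0.96), TMEM43 (0.95), PPP3CA, a calcineurin subunit (0.94), EMILIN2 (0.94) and BROX (0.93). Each r is over 16 group means from the same 64 arrays. With replicate 3 left out, 4 of the 5 genes stayed in the first 5 for SIK1, 3 for SIK2 and 1 for SIK3.

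Among the genes that act on the salt-inducible kinases, or that they act on, none of the 5 genes of the LKB1 complex, 6 protein kinase A subunits, 7 14-3-3 proteins, 7 substrates (the CRTC coactivators and class IIa deacetylases) or 3 measured MEF2 factors was called without the block in any of the contrasts named here. With both drugs at 2 h the median changes of these lists were 0.00, -0.05, -0.07, 0.01 and 0.15, beside -0.02 over all genes. Of 11 measured kinases related to AMPK, SNRK rose by 0.53 ± 0.09 with both drugs at 2 h (limma adjusted p = 2.77e-04), to a mean signal of 2791 against 1932 with vehicle, and by 0.58 ± 0.09 with indacaterol (adjusted p = 6.01e-05). MARK4, a kinase that acts on microtubule-associated proteins, fell by 0.48 ± 0.13 in vehicle at 6 h against 1 h (adjusted p = 0.0365), to 851 against 1194. The other AMPK-related kinases were not called. With the replicate block, genes named after their values were seen were called with both drugs: MEF2D at 2 h (0.56, adjusted p = 0.0394), and at 6 h the deacetylase HDAC4 (0.46, adjusted p = 0.0110), CAB39L of the LKB1 complex (-0.32, adjusted p = 0.0157) and the kinase NUAK1 (-0.39, adjusted p = 5.84e-04). At 6 h with indacaterol, HDAC4 (0.41, adjusted p = 0.0487) and NUAK1 (-0.32, adjusted p = 0.0111) were called with the block. Over all 19775 genes the block called 692 with both drugs at 2 h, 1046 with both drugs at 6 h and 458 with indacaterol at 6 h. In vehicle at 6 h against 1 h the block called 3 of 7 substrates lower, CRTC2 (-0.28), CRTC3 (-0.23) and HDAC5 (-0.35). It also called 2 of 5 LKB1 complex genes lower, STK11 (-0.21) and CAB39L (-0.28), and at 18 h STRADB of that complex (-0.30). In vehicle at 6 and 18 h the block called 1397 and 1566 of all 19775 genes, against 240 and 315 without it. The block also called genes of these lists in contrasts not detailed here.

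CREB targets, the genes that nuclear CRTC serves, were called at 1, 2 and 6 h. Of 16 measured targets, with SIK1 not counted, 5 rose and 0 fell at 1 h with both drugs and 5 rose and 0 fell with indacaterol, where 0.283% and 0.212% of all genes were called. At 2 h 10 rose and 1 fell in each contrast, beside 1.06% and 1.22% of all genes. At 6 h 4 rose and 1 fell with both drugs and 0 were called with indacaterol, beside 0.759% and 0.268%. The list was drawn up with earlier results of these data known, so its direction is not independent evidence. The median change with both drugs was 0.76, 0.95 and 0.62 at 1, 2 and 6 h, beside -0.04, -0.02 and 0.00 over all genes. At 2 h with both drugs NR4A3 rose by 5.46 ± 0.58 (limma adjusted p = 3.65e-09), NR4A2 by 4.22 ± 0.75, PDE4D, a target of GSK 256066, by 2.46 ± 0.44 and RGS2, which restrains G-protein signalling, by 2.16 ± 0.28. The gene that fell was EGR1, an immediate-early factor, by 1.68 ± 0.21, named after its values were seen; in vehicle it also fell by 1.80 ± 0.21 at 2 h against 1 h. Without replicate 3, 8 targets rose and 1 fell at 2 h with both drugs, and 1 rose and 1 fell at 6 h. Of all 19775 genes, 216 and 147 were called there. With the block, where the pairing held, 9 targets rose and 0 fell at 1 h with indacaterol. At 2 h with both drugs 12 rose and 1 fell. At 6 h 8 rose and 1 fell with both drugs, and 4 rose and 1 fell with indacaterol. Over all 19775 genes the block called 206, 692, 1046 and 458 in that order, against 42, 209, 150 and 53 without it.

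**Figure D5:**
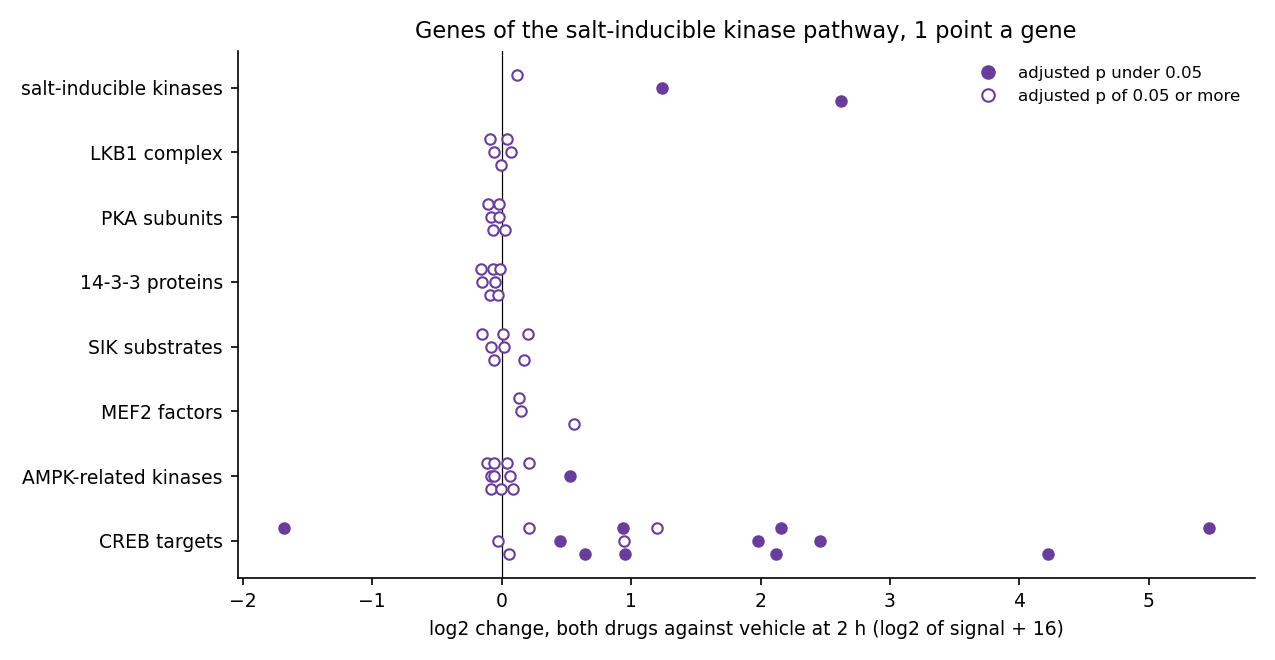
Change with both drugs against vehicle at 2 h (log2 of signal + 16) for the 3 salt-inducible kinases and the measured genes of 7 lists around them, 1 point a gene, filled where the limma adjusted p is under 0.05. SIK1 and SIK2, SNRK and 11 CREB targets are called, and no gene of the LKB1, protein kinase A, 14-3-3, substrate or MEF2 lists is.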

How the data were processed

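Total RNA of BEAS-2B cells was hybridised to 1-colour Affymetrix arrays, 1 per sample. The deposited values are probe-set intensities on a linear scale, with no negative values; the submitters' processing notes name PLIER and Transcriptome Analysis Console 4, and further settings are not given in the sources used here. Of 54675 probe sets, 62 were controls, 41091 carried 1 gene symbol, 1801 several and 11721 none. The 64 columns were mapped by sample. Values were used as deposited, as log2(signal + 16), and each of 19775 genes was read from its probe set with the highest mean. Limma 3.58.1 in R 4.3.3 fitted a mean per group over all 64 arrays (48 residual degrees of freedom), with two-sided tests and Benjamini-Hochberg adjustment over all genes, called under 0.05. The fit was tested on simulated data. The number of arrays limits the precision.

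Members and gene lists were chosen with earlier results of these data known. Named genes were the members, the called list genes with the greatest change (at most 4 a contrast) and the 5 genes most like each member. Replicate numbers were taken as pairing samples where every pair of same-numbered deviations correlated above 0.1, which held for 17 of 23 two-group comparisons; it failed for both drugs against each other group at 1 h, for indacaterol and GSK 256066 against vehicle at 2 h and for vehicle at 2 h against 1 h, for the interactions at 1 and 2 h, for the indacaterol effect between neighbouring times up to 6 h, for the both-drug effect from 1 to 2 h and for the F-tests. Alternatives were pseudocounts of 1 and 64, quantile and median scaling, leaving out dim genes, averaging probe sets, an intensity trend, only the groups compared, the block, and leaving out replicates or arrays. Sequences are from RefSeq; proteins were not analysed here.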

Additional observations from a re-analysis of the deposited data

Results flagged for a closer look

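Among 48 sets of 4 arrays (3 genes in 16 groups), 2 had an array far from the other 3, where chance alone marks about 1 in 20. The replicate 4 array of SIK2 with GSK 256066 at 18 h, at 377, lay below the other 3 (466 to 473). The replicate 3 array of SIK2 with vehicle at 18 h, at 523, lay above the others (412 to 429).

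Drug effects that differed between times by limma included the both-drug effect on SIK2, larger at 2 h than at 1 h by 1.31 (adjusted p = 0.0351). It was larger in 4 of 4 replicate numbers, which failed the pairing rule for this difference (lowest r = 0.0855). The indacaterol effect over the 4 times differed by limma's F-test for SIK1 (F = 8.71, adjusted p = 0.037) and SIK2 (F = 9.60, adjusted p = 0.0208). So did the both-drug effect over the 4 times for SIK2 (F = 9.47, adjusted p = 0.0227). Each of these calls was lost in some of the leave-outs given above.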

How the results depend on the processing

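Of 14 called gene results, recomputed as 382 values, 307 stayed past the threshold, 75 did not, and 0 changed sign. Of 97 results not called, with 2516 values, 39 passed under an alternative. The SIK1 rises with both drugs at 1 and 2 h, with indacaterol at 2 h and over GSK 256066 at 2 h stayed called in all alternatives run. Fitting only the groups compared ended the calls of SIK2 with both drugs (1.24) and indacaterol (1.21) at 2 h and over GSK 256066 at 2 h (0.99), of SIK1 with both drugs at 6 h (1.55) and over GSK 256066 at 1 h (1.84), and of the SIK2 both-drug effect from 1 to 2 h (1.31); fewer samples entered those fits. That last effect also missed under quantile scaling (1.18) and with probe sets averaged (0.74), where the SIK2 F-tests for indacaterol (6.27) and both drugs (6.83) missed too. SIK2 with both drugs at 6 h passed without dim genes (0.70) and under quantile scaling (0.71), and the SIK2 indacaterol effect from 1 to 2 h with equal medians (1.29) and a pseudocount of 64 (1.20). The cause was not tested.

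With the replicate block, paired or not, these passed: SIK1 and SIK2 with indacaterol at 6 h (0.94, 0.53), SIK2 with both drugs at 6 h (0.70), both over GSK 256066 at 6 h (1.29, 0.56), vehicle SIK1 at 6 and 18 h (-0.75, -0.75) and SIK3 at 18 h (-0.34), the effects of indacaterol on SIK1 from 2 to 6 h (-1.62) and on SIK2 from 1 to 2 h (1.28), of both drugs on SIK1 from 2 to 6 h (-1.07) and 6 to 18 h (-1.04), and the F-tests of both drugs on SIK1 (24.7) and of vehicle for SIK1 (7.49) and SIK3 (5.48). With the block on replicates 1, 2 and 4 alone these passed too: SIK1 and SIK2 with indacaterol at 6 h (0.93, 0.55), SIK2 with both drugs at 6 h (0.57), SIK1 over GSK 256066 at 6 h (1.00), vehicle SIK1 at 6 and 18 h (-0.65, -0.71) and SIK3 at 18 h (-0.39), the effects of indacaterol on SIK1 from 2 to 6 h (-1.56) and on SIK2 from 1 to 2 h (1.10) and of both drugs on SIK1 from 2 to 6 h (-1.31), and the F-tests of both drugs on SIK1 (37.2) and of vehicle for SIK1 (7.92) and SIK3 (5.30). Without replicate 3 the block no longer called SIK2 over GSK 256066 at 6 h (0.45) or the both-drug effect on SIK1 from 6 to 18 h (-0.998). The block changed no other call of the 3 kinases. CREB targets that rose numbered 9 with the block against 5 for both drugs and for indacaterol at 1 h, 6 against 3 over GSK 256066 at 1 h, and at 6 h 8 against 4 for both drugs, 4 against 0 for indacaterol and 7 against 0 over GSK 256066. All genes called went to 755 with the block against 241 for indacaterol at 2 h, and to 1046 against 150 for both drugs at 6 h. At 1 h they went to 283 against 56 for both drugs, 206 against 42 for indacaterol and 95 against 28 over GSK 256066. At 6 h they went to 458 against 53 for indacaterol and 608 against 71 over GSK 256066. In the F-tests they went to 574 against 68 for both drugs and 4417 against 1312 for vehicle.

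Leaving out replicates or single arrays gave, for SIK1, 1.57 to 2.13 over GSK 256066 at 1 h and 0.91 to 1.63 at 6 h, 1.17 to 1.89 with both drugs at 6 h, 2.17 to 2.53 with indacaterol at 1 h, and F of 3.50 to 8.65 for both drugs and 5.38 to 9.35 for indacaterol. For SIK2 it gave 0.80 to 1.14 over GSK 256066 at 2 h, 0.54 to 0.84 with both drugs at 6 h, 1.12 to 1.53 and 1.09 to 1.45 for the both-drug and indacaterol effects from 1 to 2 h, and F of 4.62 to 11.7 and 5.20 to 12.2. Without replicate 3, 1 CREB target rose at 6 h with both drugs and 1 with indacaterol, beside 147 and 97 of 19775 genes called. The number of arrays limits these tests.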
